A study of Mus musculus with 5 samples.

Results

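The nuclear-encoded subunits of the mitochondrial respiratory chain and of ATP synthase were described in cardiac fibroblasts (CF) from their transcript levels and from the share of newly made RNA. The genes were chosen by symbol. Symbols starting with Ndufa, Ndufb, Ndufc, Ndufs or Ndufv were taken without the Ndufaf assembly factors, together with symbols starting with Uqcr, with Cox and a digit from 4 to 8 or with Atp5, and with Sdha, Sdhb, Sdhc, Sdhd and Cyc1. This gave 91 of 20365 gene names, 43 for complex I, 4 for complex II, 9 for complex III, 18 for complex IV and 17 for complex V. The symbols alone decided which genes were taken. Ndufa4 was kept with complex I by its symbol, although its protein is now counted with complex IV.

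The CF came from healthy adult male C57Bl/6J wildtype mice, were isolated by collagenase perfusion and were grown in wells until confluency. The study's protocol for CF isolation also spun down cardiomyocytes and removed endothelial and immune cells with magnetic beads. In 3 labeled libraries the cells had received 0.1 mM 4-thiouridine (S4U) for 12 h, which transcripts made in that time take up in place of uridine. In 2 unlabeled libraries the cells had been kept for the same time without S4U, and RNA of all 5 libraries was alkylated. Incorporated and alkylated S4U reads as C in place of T, so that the T>C conversion rate, which is conversions per covered T position of an interval, rises with the share of a transcript made during labeling. The study's methods give 3 CF preparations for SLAMseq, and the labels do not say which preparations the unlabeled libraries came from, so p-values measure the spread between these libraries.

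The respiratory chain passes electrons from NADH through complex I, or from succinate through complex II, to ubiquinone, on through complex III to cytochrome c and through complex IV to oxygen. Complexes I, III and IV pump protons across the inner mitochondrial membrane, and complex V uses the gradient to make ATP. A small set of core subunits is made inside mitochondria from mitochondrial DNA, while the others, including every subunit of complex II, come from nuclear genes and are imported. Adult heart muscle is among the tissues richest in these complexes, and several complex IV subunits have forms particular to heart and skeletal muscle. The nuclear respiratory factor NRF1, ETS family factors such as GABP, and YY1 are known regulators of these genes.

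Promoter windows were searched for short strings of letters near the starts of the genes. Of the 91 genes, 71 had a RefSeq promoter window of 250 bases before to 50 after the start (GRCm38.p6, an older build than that of the counted intervals). The NRF1 letters GCGCATGCG occurred on either strand in 11.3% of them, against 1.95% of 27025 genes with such a window, and the YY1 letters AAGATGGCG in 9.86% against 1.64%. The ETS letters CCGGAAG occurred in 23.9% against 9.93%, the SP1 letters GGGCGGG in 33.8% against 27.9% and the letters TATAAA in 11.3% against 15.7%. The NRF1 letters overlap their own reverse complement, the end of the ETS letters can be the start of the YY1 letters, and the end of the YY1 letters can be the start of the NRF1 letters. None of these strings occurred in most of the 71 genes, and the 27025 genes were not matched to them for G+C content or type of promoter. A match describes letters, not a bound site. Stretches of 30 bases around a match are shown for genes described below, 5′ to 3′ on the strand of the gene, with the matched letters in capitals. The first 3 hold the NRF1 letters, and the last 3 hold the YY1 letters, which lay after the annotated start in every matched gene other than Atp5j.
Uqcrc1, chr9:108936668-108936697, plus strand: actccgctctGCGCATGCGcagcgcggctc
Cox6a1, chr5:115349101-115349130, minus strand: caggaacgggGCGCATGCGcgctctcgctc
Atp5g2, chr15:102671070-102671099, minus strand: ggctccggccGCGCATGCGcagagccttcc
Ndufs4, chr13:114388045-114388074, minus strand: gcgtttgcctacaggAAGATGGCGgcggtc
Ndufs7, chr10:80249463-80249492, plus strand: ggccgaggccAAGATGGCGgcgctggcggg
Atp5j2, chr5:145191499-145191528, minus strand: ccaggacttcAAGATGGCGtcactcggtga

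Each gene was represented by the 3′ UTR interval with its highest mean level in labeled libraries. On these intervals between 506045 reads (labeled replicate 3) and 1843033 reads (unlabeled replicate 1) were counted per library, and the subunit genes held 0.951 to 1.14% of them. Levels are given as CPM, read counts scaled to the same total of counted reads in each library, as the mean ± SD of the 3 labeled libraries. They are not divided by length, because the libraries hold 3′ ends only, so an order of levels between genes also carries differences in where their 3′ ends lie. In GRCm39, 89 intervals lay in exons of a gene on their strand, and the intervals of Ndufb4c and Ndufab1-ps did not. The annotation types the genes at Ndufb4b and Ndufs6b as long noncoding RNA and not as protein-coding. The median interval was 146 bases long against 874 over all genes, and 75.8% were no longer than 300 bases against 24.1% of all genes. All 10 fibroblast markers, among them Col1a1, Dcn and Pdgfra, were read in every library. The 12 cardiomyocyte markers summed to between 2.17 and 10.04 CPM, and Ckm, Myl2, Myl3 and Ryr2 had 0 reads in all libraries. The 8 endothelial markers summed to 144.7, 256.1 and 156.1 CPM in labeled replicates 1, 2 and 3 and to 179.6 and 265.0 CPM in unlabeled replicates 1 and 2, with Vwf at 0 in all but the last. The 8 immune markers summed to 66.2 to 135.5 CPM and the 6 mural markers to 24.11 to 97.38 CPM, both lowest in the libraries numbered 1.

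The libraries numbered 1 stood apart from the others in both groups. Cox8a, the ubiquitous form of the smallest complex IV subunit, is the clearest case. Its level was 157, 92.9 and 129 CPM in labeled replicates 2 and 3 and unlabeled replicate 2, but 4.44 CPM in labeled replicate 1 and 7.05 CPM in unlabeled replicate 1. Values of single libraries are therefore given in the order of labeled replicates 1, 2 and 3 and unlabeled replicates 1 and 2.

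The subunits as a group were read at high levels. Of 91 genes, 42 (46.2%) reached 100 CPM, against 10.2% of all genes, and 79 had at least 1 read in every library. The median of these 79 was 103 CPM, and the median of the 11189 genes with a read in every library was 31.7 CPM. The median over the members of a complex was 83.2 CPM for complex I, 132 for complex II, 112 for complex III, 79.8 for complex IV and 86.5 for complex V. These medians include unread genes, and among genes with at least 10 reads in every labeled library complexes IV and V stood at 184 and 183 CPM. Libraries differed about as much as complexes did, since the median of complex IV was 46.3, 96.7 and 77.1 CPM in the 3 labeled libraries.

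**Figure D1:**
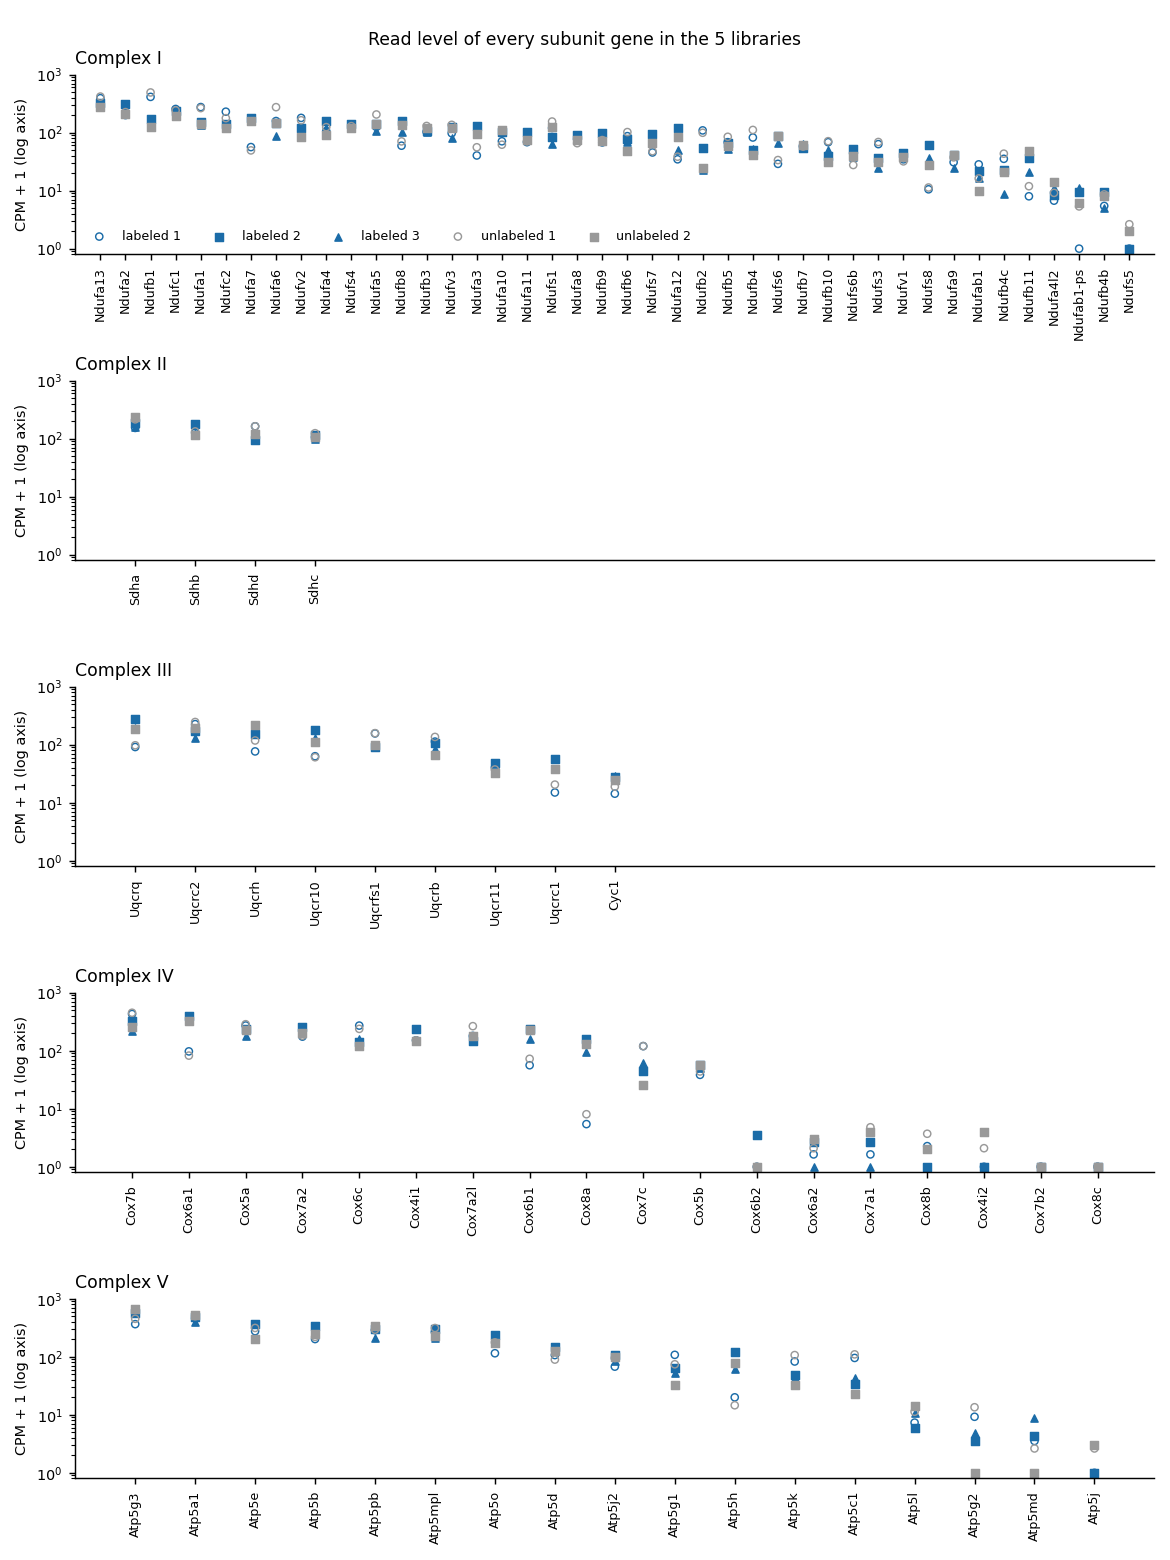
Level of 90 of the 91 subunit genes in the 5 libraries, as CPM + 1 on a log axis, by complex and in order of the labeled mean (open symbols, libraries numbered 1; filled symbols, the others; blue, labeled; gray, unlabeled). Most genes lie near 100 CPM, the muscle and testis forms of complex IV and a few genes with near copies lie under 10 CPM, and the open symbols of Cox8a fall far below the filled ones.

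Complex V held the genes with the highest levels. Atp5g3, one of the 3 genes for the membrane ring subunit c, had 364, 572 and 676 CPM in the labeled libraries and 450 and 661 CPM in the unlabeled ones. The mean of 537 ± 159 CPM was the highest of the 91. Atp5g1, which encodes the same mature protein, was read at 107, 61.9, 51.4, 73.2 and 31.1 CPM, below Atp5g3 in each library. Atp5g2, the remaining subunit c gene, had 13, 3, 2, 23 and 0 reads. For Atp5g2 a copy with 100% identity lies elsewhere in the genome, as described below, so its low count is uncertain.

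The catalytic head of complex V is built of the alpha subunit (Atp5a1) and the beta subunit (Atp5b), which carries the active site. Atp5a1 was read at 461, 487, 395, 499 and 525 CPM, a narrow range over all 5 libraries. Atp5b was read at 201, 342, 306, 219 and 242 CPM. Of the central stalk, the epsilon subunit Atp5e reached 337 ± 54.3 CPM, the delta subunit Atp5d 132 ± 22.8 CPM and the gamma subunit Atp5c1 56.2 ± 33.5 CPM. Atp5c1 was high in the libraries numbered 1, with 94.5 and 109 CPM, and low in the other 3, with 32.6, 41.5 and 22.1 CPM. In the peripheral stalk, the b subunit Atp5pb reached 266 ± 46.1 CPM and Atp5o, the subunit that ties the stalk to the head, 183 ± 63 CPM. Of the small membrane subunits, Atp5mpl reached 256 ± 46.1 CPM, Atp5j2 86.5 ± 20.7 CPM and Atp5k 56.7 ± 21.9 CPM, while Atp5l stood at 7.08 ± 2.51 CPM and Atp5md at 4.6 ± 2.89 CPM.

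In complex IV the ubiquitous forms were read and the muscle and testis forms were at or near 0. Cox4i1, the widely expressed form of the largest nuclear subunit, had 150, 234, 154, 150 and 148 CPM. Cox4i2, its form known from lung and from oxygen sensing, had 0 reads in the 3 labeled libraries and 2 and 3 reads in the unlabeled ones. Cox6a1 was read at 284 ± 163 CPM, and Cox6a2, the heart and skeletal muscle form, had 1, 2, 0, 2 and 2 reads. Cox7a2 was read at 213 ± 41.9 CPM, and Cox7a1, the muscle form, had 1, 2, 0, 7 and 3 reads. Cox7a2l was read at 158 ± 18.5 CPM. Cox8b, a muscle form, had 2, 0, 0, 5 and 1 reads beside Cox8a at 84.9 ± 76.8 CPM. Of the testis forms, Cox6b2 had 3 reads in labeled replicate 2 and 0 in the other libraries, and Cox7b2 and Cox8c had 0 reads in all libraries. A count of 0 allows up to 1.9, 2.51, 5.93, 1.63 and 3.01 CPM, as 3 reads of the counted total, for counting error only. The ubiquitous Cox6b1 and Cox7b were read at 150 ± 91.4 and 322 ± 105 CPM, and Cox6c, which has a single form, at 188 ± 71.7 CPM. Reads at a 3′ end outside the counted interval are not in these values, and the annotated gene ran on for 1786 bases past the interval of Cox8b and for 1465 past that of Cox7b2. In bulk libraries fewer cells that hold a transcript and less RNA per cell cannot be told apart.

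Complex II, the only complex that is also an enzyme of the citric acid cycle, had its 4 genes at similar levels. Sdha, the flavoprotein subunit, was read at 152, 186, 156, 214 and 235 CPM. Sdhb, the iron-sulfur subunit, was read at 125, 178, 126, 132 and 115 CPM. The membrane anchors Sdhc and Sdhd were read at 107 ± 8.41 and 121 ± 36.2 CPM. Labeled and unlabeled values overlapped for Sdhb, Sdhc and Sdhd, and the labeled and unlabeled values of Sdha did not overlap. In edgeR's test of reads described below, Sdha had a log2 fold change of -0.37 ± 0.24 (SE), labeled minus unlabeled. Its unadjusted p in that test was 0.168 and its adjusted p 0.985, so no change was called.

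In complex III, Uqcrq reached 188 ± 94.1 CPM, the core protein Uqcrc2 176 ± 47.2 CPM, the hinge protein Uqcrh 126 ± 44 CPM, and Uqcrfs1, the Rieske iron-sulfur protein that takes electrons from ubiquinol, 112 ± 37.7 CPM. Uqcrc1, the partner of Uqcrc2, was read at 14, 56.1, 37.5, 19.5 and 37.1 CPM, lower than Uqcrc2 in each library. Cyc1, the cytochrome c1 heme protein, was read at 22.6 ± 8.04 CPM, the lowest mean of this complex.

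Complex I spanned from Ndufa13 at 330 ± 55.5 CPM to Ndufs5 at 0 in the labeled libraries. Next to Ndufa13 stood Ndufa2 at 252 ± 56.6 CPM, Ndufb1 at 240 ± 148 CPM and Ndufc1 at 232 ± 22.2 CPM. Without labeled replicate 1 the mean of Ndufb1 was 155 CPM, below that of Ndufc1. The nuclear-encoded core subunits form the path of the electrons from NADH to ubiquinone, and most of them carry the flavin or iron-sulfur clusters. Among them, Ndufv2 stood at 127 ± 47.2 CPM, Ndufs1 at 88 ± 28.2, Ndufs7 at 75.4 ± 26.9, Ndufs3 at 40.6 ± 19.6, Ndufv1 at 40.2 ± 5.7 and Ndufs8 at 34.8 ± 25 CPM. Ndufs8 was read at 9.52 and 10.3 CPM in the libraries numbered 1 and at 59.4, 35.6 and 26.1 CPM in the others. Ndufa4 was read at 126 ± 26.4 CPM, while Ndufa4l2, its hypoxia-inducible relative, had 9, 9, 5, 15 and 13 reads.

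Some low counts fell on intervals with near copies in the genome. For 38 of the 91 intervals another place in GRCm39 matched at least 80% of the interval at 90% identity or more, and Ndufa1 had the most such places, 48. At 99% identity or more there were 9 genes, Atp5g1, Atp5g2, Atp5h, Atp5j, Atp5l, Atp5md, Cox7c, Ndufb11 and Ndufs5. Their median was 7.08 CPM, 5 of them stood under 10 CPM, and the highest, Cox7c, stood at 74.8 CPM. The 29 genes with a copy at lower identity had a median of 126 CPM and the 53 genes without a copy 92.3 CPM. Ndufs5, with a copy at 100% identity, had 3 and 1 reads in the unlabeled libraries and none in the labeled ones. Atp5j, likewise with a copy at 100% identity, had 0, 0, 1, 3 and 2 reads, and Atp5l, with 15 copies, had 10, 6, 5, 19 and 13 reads. The tables list no multiply mapped reads. The annotated genes also ran on past the intervals, by 10599 bases for Atp5j and 24428 for Atp5l, but by 22 for Ndufs5 and 8 for Atp5g2. Cox7a2l, read at 158 ± 18.5 CPM, ran on for 43376 bases. Whether reads of the genes with low counts were lost to a copy or lay past the interval was not tested. Their levels and those of the genes with copies are uncertain.

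The T>C rate was described where no library had fewer than 1000 covered T positions, which held for 32 subunit genes and 2107 genes in all, called deep in what follows. The median rate of the 32 subunits was 0.0292, or 0.0281, 0.032 and 0.0308 in labeled replicates 1, 2 and 3, against 0.000373 and 0.000425 in the unlabeled libraries. Over the 2107 genes the median was 0.0388, with quartiles of 0.0343 and 0.0422, or 0.0378, 0.039 and 0.0388 in the labeled libraries. The difference between both medians, subunits minus all genes, was -0.0097, -0.00698 and -0.00799 in the labeled libraries. The sign was the same in all 3, and the exact two-sided sign-flip permutation test gave p = 0.25, the smallest value that 3 libraries allow. Of the 32 subunits, 20 lay below the median of all genes in every labeled library, 5 lay above it in every one and 7 lay on both sides. The median share of reads with at least 1 conversion was 34.6, 39.9 and 36.6% for the subunits, compared with 0.724 and 0.851% in the unlabeled libraries. This share depends on the T positions a read covers, which ranged from 7.84 for Ndufa13 to 27.3 for Ndufa4.

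The depth required bears on this comparison. At 200 covered T positions 65 subunits had a median of 0.0333 against 0.0386 for 6662 genes, and at 5000 positions only Atp5g3 was left.

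The subunits spread widely among themselves, and the order held between libraries. The Spearman correlation of the rates of the 32 subunits was 0.94 between labeled replicates 1 and 2, 0.83 between 1 and 3 and 0.88 between 2 and 3, as a description over genes that are read in the same libraries.

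Among the deep genes, complex II had the highest median rate and complex I the lowest. The medians were 0.0246 for 10 genes of complex I, 0.0425 for 3 of complex II, 0.0265 for 5 of complex III, 0.0288 for 7 of complex IV and 0.0368 for 7 of complex V. The intervals of these genes also differed in median length, 148, 745, 419, 191 and 247 bases for complexes I to V. The part of length in this order was not tested. In each labeled library the median of complex II was above that of every other complex. The median of complex I was the lowest in each labeled library, at 0.0255, 0.0277 and 0.0204, apart from labeled replicate 2, where complex III stood at 0.0276. With 200 covered T positions required, complex II still had the highest median, 0.0406, but complex IV the lowest, 0.0292, with complexes I, III and V at 0.0328, 0.0333 and 0.0344. The difference between complexes was not tested, since complexes hold few genes of this depth.

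**Figure D2:**
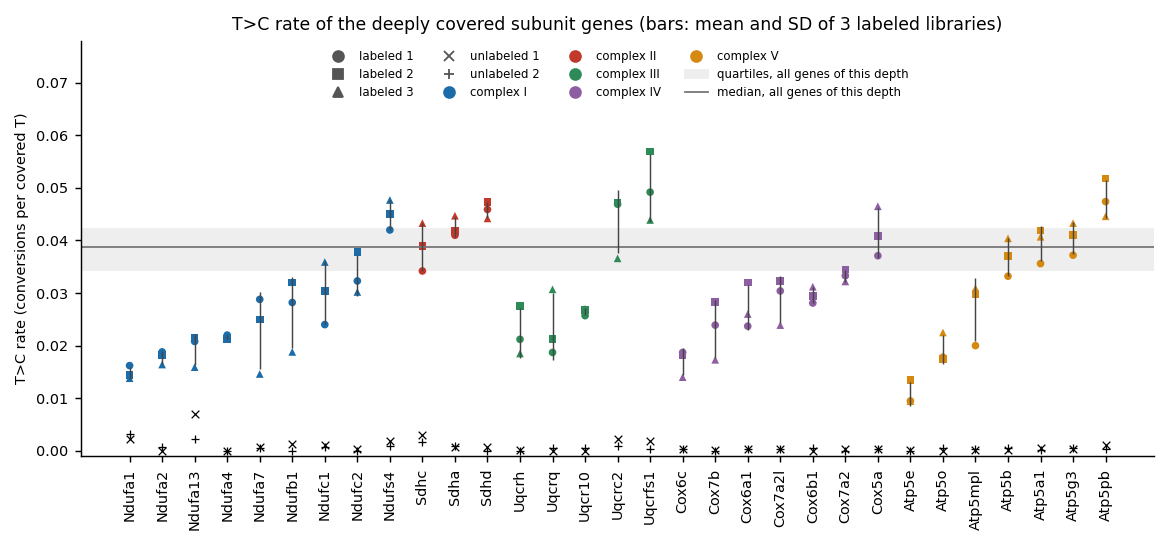
T>C rate of 31 of the 32 subunit genes for which no library had fewer than 1000 covered T positions, by complex and in order of the mean (symbols, single libraries; bars, mean and SD of the 3 labeled libraries; gray band and line, quartiles and median of all 2107 genes of this depth). Rates run from 0.0108 for Atp5e to 0.05 for Uqcrfs1, and the unlabeled libraries stay below 0.007.

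The 3 deep genes of complex II lay near or above the median of all genes. Sdhd had rates of 0.0459, 0.0473 and 0.0442, Sdha 0.041, 0.0418 and 0.0447 and Sdhc 0.0342, 0.0389 and 0.0433. Sdhd and Sdha were above the median of all genes in each labeled library. Sdhb, with 920 covered T positions in the shallowest library, had 0.0364, 0.034 and 0.0413.

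In complex III the genes fell apart into low and high ones. The Rieske protein Uqcrfs1 had 0.0492, 0.0569 and 0.0439, the highest mean of all 32 subunits, and exceeded 98.8% of the 2107 genes. The core protein Uqcrc2 had 0.0469, 0.0472 and 0.0366. The small subunits Uqcr10 (0.0257, 0.0268 and 0.027), Uqcrq (0.0187, 0.0212 and 0.0307) and Uqcrh (0.0212, 0.0276 and 0.0185) lay below both in every library. Uqcrfs1 was read at chr13:30724295-30724713 (GRCm39, minus strand), an exon of its gene.

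In complex V a single gene stood lowest of all. Atp5e had rates of 0.00948, 0.0135 and 0.00943, and the lowest labeled value of any other deep subunit was 0.0138, for Ndufa1. With the unlabeled rate subtracted, the means of these genes were closer, 0.0107 for Atp5e and 0.0121 for Ndufa1. Only 2.23% of the 2107 genes had a lower mean than Atp5e without this subtraction. In the unlabeled libraries Atp5e had a rate of 0.000113 and no conversion, which allows up to 0.000937. Its interval is chr2:174302868-174303014 (GRCm39, minus strand), an exon of the gene that the annotation calls Atp5f1e. Atp5o had 0.0178, 0.0175 and 0.0225 and Atp5mpl 0.02, 0.0298 and 0.0309. The subunits of the catalytic head were higher, with 0.0332, 0.037 and 0.0404 for Atp5b and 0.0356, 0.0419 and 0.0407 for Atp5a1. Atp5g3, the most abundant gene, had 0.0372, 0.041 and 0.0433, and the stalk subunit Atp5pb 0.0474, 0.0518 and 0.0446. Within complex V the mean rates of Atp5e and Atp5pb thus stood at 0.0108 ± 0.00233 and 0.0479 ± 0.00365 (SD, n = 3), with no overlap between libraries.

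Among the deep genes of complex IV, Cox5a had the highest rates, 0.0371, 0.0408 and 0.0465. Cox6c had the lowest of them, 0.0187, 0.0181 and 0.014. In between lay Cox7a2 at 0.0333 ± 0.00116, Cox6b1 at 0.0296 ± 0.00157, Cox7a2l at 0.0288 ± 0.00441, Cox6a1 at 0.0272 ± 0.0043 and Cox7b at 0.0232 ± 0.00553. Cox7a2 overlapped neither Cox5a nor Cox6b1 between libraries, and the other neighbors in this order overlapped. Cox4i1, with 870 covered T positions in the shallowest library, had 0.0129, 0.0174 and 0.0115. Cox8a had 0.0068, 0.0216 and 0.0195, the first of these from only 147 covered T positions.

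In complex I, Ndufs4, an accessory subunit of the electron input part, was the only deep one above the median of all genes in every labeled library, with 0.042, 0.0451 and 0.0477. Next among the deep genes came Ndufc2 with 0.0323, 0.0378 and 0.0302. The lowest of the deep genes were Ndufa1 (0.0162, 0.0144 and 0.0138), Ndufa2 (0.0188, 0.0182 and 0.0164) and Ndufa13 (0.0208, 0.0214 and 0.0159). Ndufa13 also had the highest unlabeled rate of the 32 subunits, 0.00694 in unlabeled replicate 1, and 0.00232 in unlabeled replicate 2. Ndufa1 had 0.00226 and 0.00314 in the unlabeled libraries. With the unlabeled rate subtracted, the means were 0.0121 for Ndufa1, 0.0147 for Ndufa13 and 0.0175 for Ndufa2, so that Ndufa13 came below Ndufa2. Ndufa4 had 0.022, 0.0213 and 0.0219, the narrowest spread of the 32, with no conversion on the covered T positions of either unlabeled library, which allows up to 0.000492 and 0.00139. In unlabeled replicate 2 the tables nevertheless count 1.14% of its reads as converted. Of the core subunits read from fewer T positions, Ndufv2 had 0.0435 ± 0.0042, Ndufs3 0.0413 ± 0.0128, Ndufs7 0.0394 ± 0.00884, Ndufs1 0.0378 ± 0.00451, Ndufs8 0.0299 ± 0.00596 and Ndufv1 0.026 ± 0.00385.

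Interval length and near copies moved with the rate. Among subunits with intervals of at most 300 bases, 21 had a median rate of 0.024, 0.0295 and 0.026 in the labeled libraries, against 0.03, 0.0325 and 0.0331 for 187 other genes with such intervals. The difference, subunits minus other genes, was -0.00537 ± 0.00215 over the 3 libraries and was negative in each (exact sign-flip permutation test, p = 0.25, the smallest possible). The 11 subunits with longer intervals had 0.0356, 0.0418 and 0.0407, against 0.0383, 0.0394 and 0.0392 for 1888 other genes, below them in labeled replicate 1 and above them in the other 2. The 14 subunits with a near copy had a median rate of 0.0266 and a median length of 137 bases, and the 18 without one a median rate of 0.0378 and a median length of 362 bases. The parts of length and of copies in the rates were not tested.

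Other groups of short, abundant genes gave a scale for these rates. The 30 cytosolic ribosomal protein genes of this depth had a median rate of 0.0219, 0.0242 and 0.0239, below the subunits in every labeled library. The difference, subunits minus ribosomal proteins, was 0.007 ± 0.000799. The 15 proteasome subunits had 0.037, 0.0389 and 0.0403, above the respiratory subunits in every library. The difference, respiratory minus proteasome subunits, was -0.00842 ± 0.00137, and the median interval was 216 bases long in both sets. The differences to both sets reached the smallest p of the exact sign-flip permutation test, 0.25. Only 4 mitochondrial ribosomal proteins were deep enough, and their median of 0.037, 0.0339 and 0.0297 lay above that of the respiratory subunits in labeled replicates 1 and 2 and below it in labeled replicate 3.

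**Figure D3:**
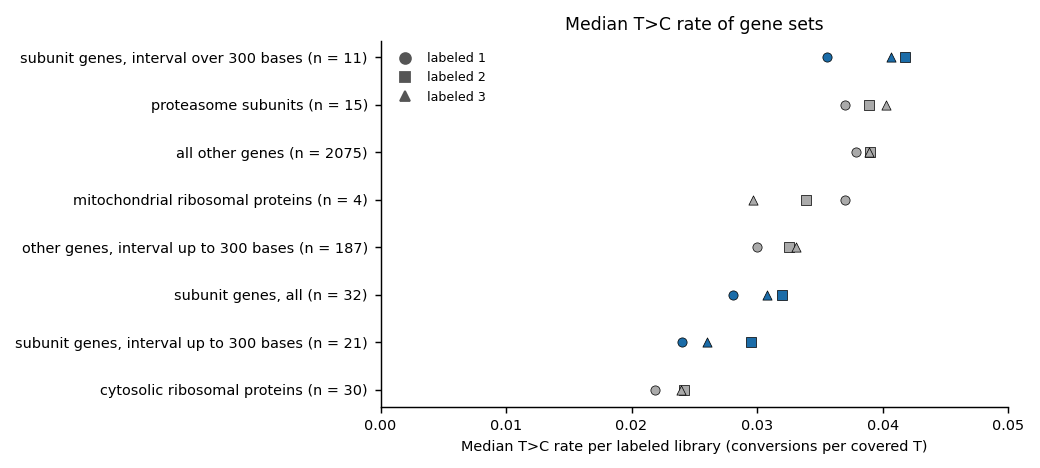
Median T>C rate of gene sets in each labeled library (n, genes without a library of fewer than 1000 covered T positions; blue, subunit genes; gray, other sets). The subunits lie between the cytosolic ribosomal proteins (0.0219 to 0.0242) and the proteasome subunits (0.037 to 0.0403), and the subunits with intervals over 300 bases lie near all other genes.

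Labeled and unlabeled libraries were then compared for each interval with a beta-binomial likelihood-ratio test. Of 79 subunit genes with a covered T in every library, 78 had a raised rate in the labeled libraries at an unadjusted p below 0.05. Over all 19240 intervals tested, 94.6% were raised, so that the share of the subunits is near that of all intervals. The lowest labeled rate exceeded the highest unlabeled rate in 78 of the 79 subunits and in 89.2% of all intervals tested. The subunit that overlapped was Atp5l, with labeled rates of 0.0187, 0 and 0.0146 and an unlabeled rate of 0 in both libraries. In unlabeled replicate 1, 5.26% of its reads nevertheless count as converted. The unadjusted p was 1.03e-07 for Atp5g3, 1.17e-07 for Sdha, 3.51e-05 for Atp5e and 0.000841 for Ndufa13. The other subunits could not be tested, because a library held no covered T position, among them Ndufs5, Atp5j, Atp5g2, Atp5md and the muscle and testis forms of complex IV.

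Genes named as copies of subunits are described next. The tested gene name without a raised rate was Ndufb4c, for which the beta-binomial test gave an unadjusted p of 0.0944. It was read at chr15:73681298-73681355 (GRCm39, minus strand) from 63 covered T positions in the shallowest library, in no annotated exon and within the span of Mroh5. Its rates were 0.0266, 0.0783 and 0.0317 in the labeled libraries, and the unlabeled libraries already gave 0.0103 and 0.0235. Ndufb4b, on chromosome 19 and overlapping Dock8, likewise had unlabeled rates of 0.0151 and 0.0294. The median unlabeled rate of the 32 deep subunits was 0.000347, and Ndufb4 itself had 0.000902 and 0 unlabeled with 0.0421, 0.0416 and 0.038 labeled. Ndufb4b and Ndufb4c each have 3 near copies. Ndufs6b had 0.0115, 0.0229 and 0.0152, close to Ndufs6 at 0.0124, 0.0243 and 0.0196. The 2 intervals match at 96.6% identity, so reads of the pair may not all be told apart. Their levels differed, with 41.9, 50.2, 37.5, 26.6 and 38.1 CPM for Ndufs6b and 27.9, 87, 65.2, 32.6 and 87.3 CPM for Ndufs6. Ndufab1-ps had 0, 10, 5, 8 and 5 reads, and its rate was not tested. Of these reads, 90 and 80% count as converted in labeled replicates 2 and 3. In unlabeled replicates 1 and 2 the shares were 87.5 and 100%, although the rate there was 0.

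Read counts of labeled and unlabeled libraries were compared without pairing the libraries by number. With edgeR's quasi-likelihood test and Benjamini-Hochberg adjustment, 0 of 79 subunits tested passed an adjusted p below 0.05, as did 0% of 9807 genes. At an unadjusted p below 0.05 there were 0 subunits, against 5.97% of all genes, and DESeq2 called 0 subunits and 18 genes. A fit that pairs the libraries by number, a pairing the labels do not give, changed these calls. It left 1 residual degree of freedom, and labeled replicate 3 had no unlabeled partner. It called 11.7% of genes and 4 of 79 subunits. Atp5g1, Atp5h and Ndufab1 were higher in the labeled libraries and Uqcrh was lower. The median log2 fold change of the subunits, labeled minus unlabeled, was 0.12, and that of all genes 0.02. It was above 0 for 50 subunits and below 0 for 29, within a range from -0.71 (Atp5l) to 1.03 (Ndufs8).

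The smallest unadjusted p belonged to Ndufab1, the mitochondrial acyl carrier protein. It was read at 27.3, 20.9 and 15.8 CPM labeled and at 15.2 and 9.03 CPM unlabeled, with a log2 fold change of 0.89 ± 0.42 (SE) and an edgeR adjusted p of 0.883. These levels rest on 43, 25, 8, 28 and 9 reads. In the fit that pairs libraries by number, with 1 residual degree of freedom, its log2 fold change was 1.02 and it passed the threshold. The lowest labeled value was above the highest unlabeled one by less than 1 CPM. The other 4 with the smallest p were Ndufs1 (log2 fold change -0.56), Ndufa6 (-0.6), Cox7a2l (-0.41) and Atp5e (0.47), with edgeR adjusted p from 0.952 to 0.976. Atp5e had 275, 366 and 372 CPM labeled and 313 and 204 CPM unlabeled, which overlap. A p that misses the threshold does not show equal levels. Among the labeled libraries, replicate 1 stood furthest from the others, as described below. With 2 unlabeled libraries, their spread cannot be put down to either of them. Without both libraries numbered 1, the log2 fold change of Atp5e was 0.9. That fit was added after the data were seen, and it leaves a single unlabeled library, whose spread is assumed to be that of the labeled ones.

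Libraries numbered 1 differed from the others in the same genes in both groups. For 76 subunits with at least 100 reads over the 5 libraries, the log2 level of labeled replicate 1 minus the mean of labeled replicates 2 and 3 was set beside unlabeled replicate 1 minus unlabeled replicate 2, each with 1 CPM added. The labeled and unlabeled differences had the same sign for 62 of the 76 subunits, or 81.6%, and for 81.8% of all genes with as many reads. Their Spearman correlation was 0.92, against 0.8 over these 7804 genes, as a description over genes that share libraries. In labeled replicate 1, 16 subunits were lower by more than 1 and 6 were higher by more than 1, together 28.9%, against 18.6% of all genes. Between labeled replicates 2 and 3, 3.95% of the subunits differed by more than 1, near the 4.61% of all genes.

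Among the genes low in both libraries numbered 1 were Cox8a (-4.53 and -4.02), Atp5h (-2.21 and -2.41), Cox6a1 (-1.96 and -1.96), Ndufb11 (-1.83 and -1.99), Cox6b1 (-1.82 and -1.67) and Ndufa7 (-1.66 and -1.69). Cox6a1 was read at 96.4 and 81.4 CPM there and at 393, 362 and 320 CPM in the other libraries, with no overlap. High in both were Ndufb2 (1.5 and 2.04), Ndufb1 (1.4 and 1.99), Atp5c1 (1.33 and 2.25) and Cox7c (1.15 and 2.21). Ndufb1 was read at 411 and 490 CPM there and at 172, 138 and 122 CPM in the others. Subunits of the same complex thus moved in opposite directions, as Cox7c and Cox8a of complex IV did.

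The G+C content of the counted interval moved with this difference. The Spearman correlation was -0.64 over the 76 subunits and -0.36 over all 7804 genes for labeled replicate 1, and -0.57 and -0.31 for unlabeled replicate 1. Of the 26 subunits with the lowest G+C content (20.5 to 39.1%), 20 were higher in labeled replicate 1, with a median log2 difference of 0.59. Of the 25 with the highest content (47.7 to 60.6%), 23 were lower, with a median of -0.61. Labeled replicate 2 minus 3 showed medians of 0.31 and 0.26 in the same sets. The part of G+C content in the difference was not tested, and the sources do not say what the number 1 stands for.

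**Figure D4:**
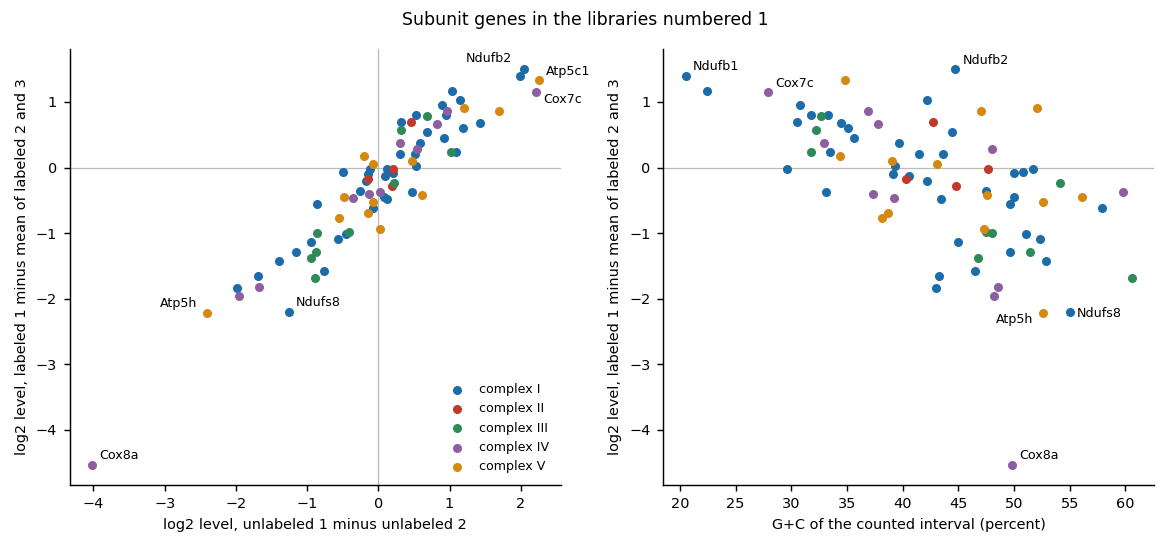
Left, log2 level of labeled replicate 1 minus the mean of labeled replicates 2 and 3 against unlabeled replicate 1 minus unlabeled replicate 2, for 76 subunit genes with at least 100 reads (colors, complexes). Right, the same labeled difference against the G+C content of the interval in percent. Genes lie along a rising line at the left (Spearman 0.92) and a falling one at the right (-0.64), with Cox8a lowest in both.

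Neighboring pathways were read alongside from fixed gene lists. Of assembly factors for the complexes, such as the Ndufaf genes, 45 of 47 tested had a raised T>C rate, as did 18 of 18 genes of the citric acid cycle and pyruvate dehydrogenase, 21 of 21 carriers and coenzyme Q and cytochrome c genes, 26 of 26 import genes and 15 of 16 regulators, beside 94.6% of all intervals. In edgeR's test none of the genes of these lists passed. The unadjusted p was below 0.05 for 1 of 46 assembly factors, 1 of 18 citric acid cycle genes, 2 of 12 regulators, 1 of 19 carriers and 1 of 24 import genes, beside 5.97% of all genes. Assembly factors had a median level of 24.1 CPM, a single one of them deep enough for a rate, Coa5 at 0.0425 ± 0.00225. The 5 deep citric acid cycle genes had a median rate of 0.0389, with Pdha1 at 0.0449, and the 3 deep carriers, Slc25a3, Slc25a4 and Slc25a5, ranged from 0.0376 to 0.0419. Slc25a4, the ADP/ATP carrier form of heart muscle, was read at 719 ± 321 CPM.

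Of the regulators, Ppargc1a, the coactivator of mitochondrial biogenesis, had 0.634, 0.837, 0, 1.63 and 1 CPM. Nrf1 was read at 12.6 ± 2.23 CPM, Gabpa, the DNA-binding subunit of GABP, at 85, 42.7 and 23.7 CPM in the labeled libraries, and Esrra, an orphan nuclear receptor of energy metabolism, at 49.1 ± 10 CPM. Yy1 was read at 106 ± 23.3 CPM and Tfam, which packages mitochondrial DNA, at 65 ± 4.04 CPM. The T>C rates of Tfam were 0.0368, 0.0462 and 0.0416 and those of Yy1 0.0311, 0.0409 and 0.0366.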

How the data were processed

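SLAMseq libraries of CF, 3 labeled and 2 unlabeled, were grouped by the submitters' labels. The authors moved UMIs into the read headers and removed duplicates with UMI-tools, mapped reads to mm39 with SLAM-DUNK 0.4.3 and deposited, per 3′ UTR interval and library, counts of reads, of covered T positions, of conversions and of converted reads, none of them normalized. The deposited conversion rate is a fraction, conversions over covered T positions. The deposited CPM divides by a larger number of reads than is counted on the intervals and was used to choose intervals. The aligner settings and the origin of the interval set are not given in the sources used here.

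Repeated rows were used once, and each gene took 1 interval, that with the highest mean deposited CPM in labeled libraries. Levels were computed from the deposited counts as CPM of the reads counted on these intervals. T>C rates were compared by a two-sided beta-binomial likelihood-ratio test on intervals where each library covered 1 T or more (unadjusted p, threshold 0.05), and reads by edgeR's quasi-likelihood test (TMM, filterByExpr, Benjamini-Hochberg adjustment), without a replicate block. Medians were compared over libraries by exact sign-flip permutation tests. Copies were searched with BLAST 2.17.0. Intervals and exons refer to GRCm39, promoter windows to RefSeq on GRCm38.p6. Tests were tried on simulated data. The subunit genes and all lists were chosen with earlier results of these data known.

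Genes were named by rule. Per complex these were the 3 highest and 3 lowest T>C rates and the 3 highest levels among genes with no library under 1000 covered T positions. Added were isoform families, complex II, the complex I core, the 5 smallest p of the reads test, and genes without a raised rate or with 0 reads in a library. Others named (Uqcrc1, Cyc1, Atp5pb's partners in the stalks, small complex V subunits, genes apart in libraries numbered 1 and genes with copies) were chosen after their values were seen. Alternatives were minimums of 200, 1000 and 5000 covered T positions, adjusted p, limma on log odds (pseudocount 0.5), RLE factors, DESeq2, no low-count filter, summed intervals, a replicate block, pooled and background-subtracted rates, deposited CPM and each library left out. Leaving out both libraries numbered 1 and the genes with near copies were added after the data were seen. Results for some genes are not reported here. Depth limits precision, and limits given for 0 cover counting error only. The tools were Python 3.11.15 with scipy 1.17.1, pandas 2.3.3 and numpy 2.4.6, and R 4.3.3 with DESeq2 1.42.0, edgeR 4.0.16 and limma 3.58.1.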

Additional observations from a re-analysis of the deposited data

How the results depend on the processing

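The count of subunits with a raised T>C rate lay between 76 and 79 with each library left out in turn, and the count of all intervals between 17056 and 18632. With 1000 covered T positions required in every library there were 32 subunits, all of them raised, and 3154 intervals, and with 200 positions 10765 intervals, since fewer were tested. The median T>C rate of the subunits was 0.0333 at 200 positions and 0.0405 at 5000, and 0.0378 for the subunits without near copies. The difference to all genes was -0.00529 at 200 positions and, with Atp5g3 alone left, 0.00503 at 5000, the opposite sign. At 200 positions the medians of complexes I to V were 0.0328, 0.0406, 0.0333, 0.0292 and 0.0344, so that complex IV and not complex I was lowest, and at 5000 that of complex V was 0.0405. With the unlabeled rate subtracted, the rate of Ndufa1 fell from 0.0148 to 0.0121 and that of Ndufa13 from 0.0193 to 0.0147. Levels relative to the larger deposited total gave medians of 6.68, 11.5, 9.25, 6.45 and 7.06 CPM for complexes I to V. Where 10 reads were required in every labeled library, complexes IV and V rose to 184 and 183 CPM. The median level of complex III ranged from 95.1 to 112 CPM with a labeled library left out.

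DESeq2 called 13 genes higher and 5 lower in the labeled libraries. With the replicate block, the pairing of equal numbers, 528 genes were higher and 618 lower, among them 3 subunits higher (Atp5g1, Atp5h and Ndufab1) and 1 lower (Uqcrh), which is 5.06% of the subunits tested against 11.7% of all genes. The labels do not say that a number marks a shared preparation. Over 9807 genes, the deviation from the own group's mean had a correlation of 0.78 for the libraries numbered 1 and of 0.63 for those numbered 2, and labeled replicate 3 had 0.47 with unlabeled replicate 2. With 2 unlabeled libraries their deviations mirror each other, so these values are not independent. Without both libraries numbered 1, 166 genes were higher and 206 lower, and 1 subunit was higher. The fold changes of the 5 subunits with the smallest p kept their direction under the alternatives run, but not their size. With 1 library left out, Ndufab1 ranged from 0.64 to 1.29, Ndufs1 from -0.82 to -0.39, Ndufa6 from -0.95 to -0.12 and Cox7a2l from -0.63 to -0.17, and Atp5e from 0.23 to 0.76. Both ends came from leaving out unlabeled replicate 1 or 2, except for Ndufs1, where they came from labeled replicates 1 and 3. The causes of these differences were not tested. Labeled replicate 3, the shallowest, limits the genes whose rate could be described.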
